A study of Fragaria vesca with 9 samples.

Results

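In axillary buds of woodland strawberry, *Fragaria vesca*, 101 genes were graded across the 3 genotypes of the study, with the ecotype RdV lying between the accession H4 and the line FT3OE. They were chosen from 34006 genes by their own values. A gene had to average at least 1 CPM (the expected count per 1000000 counts of the library) over the 9 libraries. On the scale log2(CPM + 0.5), the RdV mean had to lie between the means of H4 and FT3OE and at least 0.4 from each, with no overlap between the libraries of any 2 genotypes. Of 16945 genes that met the level requirement and were not left out beforehand, 66 (0.389%) were rising, with FT3OE highest and H4 lowest, and 35 (0.207%) were falling, with FT3OE lowest and H4 highest. Because these values made the choice, the differences between genotypes given for the members are a description and carry no test.

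The tissue was the undifferentiated axillary bud at node 4 of plants with 4 leaves, grown in days of 16 h. RdV is a separate ecotype (3 libraries). FT3OE is named as such in the study's design text and read here as an FT3 overexpressor; its libraries are titled FT3 and carry Hawaii-4 as both ecotype and genotype (3 libraries). The sources used here do not give the promoter, the number of transformed lines or whether plants were pooled. H4 is the accession Hawaii-4 itself (3 libraries), and no plant was treated. The library titles carry the undefined code UB4 in RdV and FT3OE and US4 in H4, so this code and the difference from H4 cannot be told apart. Total expected counts ran from 23110933 to 44916872 per library. No label says that the replicates came from separate plants.

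An axillary bud sits in the angle between a leaf and the stem, and in strawberry it can grow into a runner, which makes daughter plants, or into a branch crown, a short leafy shoot that can end in an inflorescence. Proteins of the FLOWERING LOCUS T family are known as mobile signals that move from leaves to shoot tips and act there with bZIP transcription factors, while the related TERMINAL FLOWER 1 proteins oppose them. The series asks how bud fate and outgrowth into branch crowns are set, and the graded genes are those in which an ecotype stood part of the way between an accession and its FT3 line. The deposited identifiers carry no gene names, and 0 of 34006 matched the RefSeq gene table used here, so no member is given a name or a role. No identifier is annotated as FT3 either, and the overexpressed gene was therefore not checked by name. FvH4_3g09870, which had the largest FT3OE-H4 difference of all eligible genes, held 1, 0 and 0 counts in RdV, against 7584, 11460 and 13889 in FT3OE and 3, 1 and 0 in H4; it was not graded. For the same reason no cell type marker could be read. In whole buds, fewer cells of a type and less RNA per cell cannot be told apart.

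**Figure D1:**
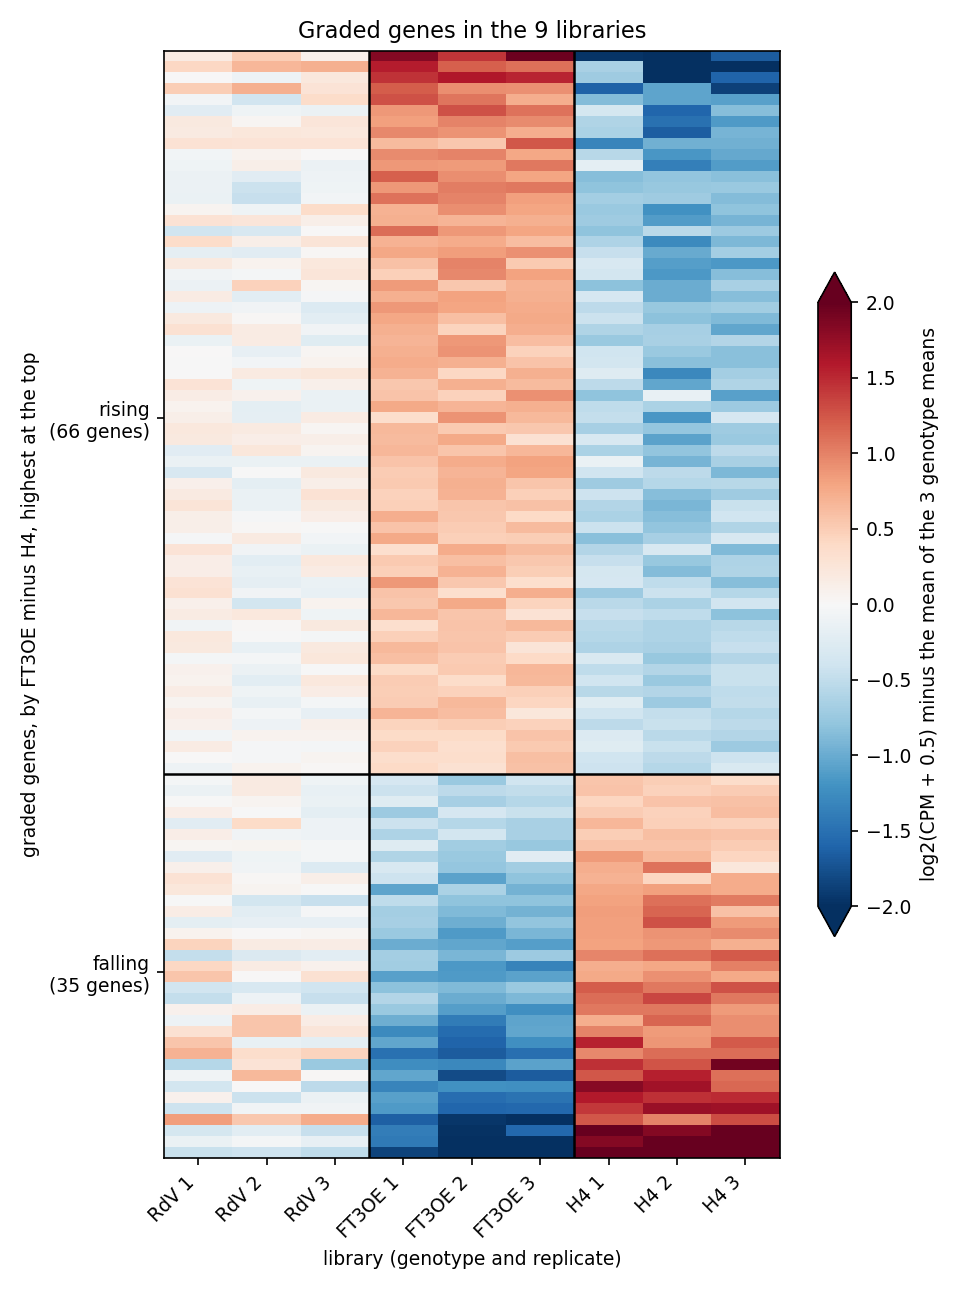
Values of the 101 graded genes (rows) in the 9 libraries (columns), as log2(CPM + 0.5) minus the mean of the 3 genotype means of each gene, with the colour scale ending at −2 and 2. The 66 rising genes are above the line and the 35 falling genes under it, each ordered by FT3OE minus H4. In every row the values of the 3 RdV columns lie between those of FT3OE and H4, as the rule requires.

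The falling genes spanned wider differences than the rising ones. FT3OE minus H4 had a median of 1.31 on the log2 scale in the rising genes (range 0.86 to 3.74) and of −1.89 in the falling genes (range −6.54 to −0.96). The median over all 16945 eligible genes was 0.10. RdV minus H4 had a median of 0.66 in the rising genes and −0.76 in the falling genes, against 0.06 over all eligible genes. RdV minus FT3OE had medians of −0.56 and 0.96, against −0.03. A distance of at least 2 on the log2 scale between FT3OE and H4 was reached by 5 of 66 rising and 15 of 35 falling genes. Both steps, from H4 to RdV and from RdV to FT3OE, were at least 1 in 2 rising genes, FvH4_6g35011 and FvH4_1g03040, and in 7 falling genes.

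The steepest member was the falling FvH4_2g35050, whose FT3OE-H4 difference was also the most negative of all eligible genes. It had 13.5, 13.8 and 13.0 CPM in RdV, 4.83, 1.07 and 1.00 in FT3OE, and 193, 225 and 234 in H4. The RdV libraries agreed closely, whereas FT3OE replicate 1 stood well above the other FT3OE libraries and still under every RdV library. RdV minus H4 was −3.96 and FT3OE minus H4 −6.54, or −7.14 without FT3OE replicate 1. Per unit of gene length it averaged 21.5 ± 0.584 TPM in RdV, 3.62 ± 3.44 in FT3OE and 334 ± 34.9 in H4 (SD, n = 3 each), so that at its H4 level it belonged to the more abundant members.

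FvH4_4g19283 was next, with 6.26, 6.70 and 6.08 CPM in RdV, 2.26, 1.07 and 1.34 in FT3OE, and 25.8, 31.8 and 30.2 in H4. Its RdV values lay in a narrow band nearly midway on the log2 scale, at −2.12 from H4, with FT3OE at −3.89. FvH4_2g34280 had 1.54, 1.74 and 1.38 CPM in RdV, 0.491, 0.159 and 0.378 in FT3OE, and 9.95, 8.78 and 10.8 in H4. The FT3OE values of this gene rest on 13, 7 and 17 counts. The depth-scaled ratio of its summed counts was 30.9 for H4 over FT3OE (exact 95% binomial interval 22.3 to 44.2, counting error only).

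FvH4_3g38920 had 1.70, 2.29 and 2.28 CPM in RdV, 0.830, 0.477 and 0.490 in FT3OE, and 7.32, 9.22 and 9.03 in H4. FvH4_6g26810, read at higher levels, had 37.2, 25.8 and 32.2 CPM in RdV, 16.2, 11.8 and 12.2 in FT3OE, and 106, 97.5 and 99.7 in H4. In both genes RdV stood slightly past the midpoint towards FT3OE. FvH4_3g01740 was unlike these: it had 15.5, 12.6 and 14.6 CPM in RdV, 2.42, 1.84 and 1.65 in FT3OE, and 20.8, 17.4 and 21.8 in H4. RdV was here close to H4, with a difference of −0.48, while FT3OE was at −3.06. As a share of the log2 distance from H4 to FT3OE its RdV mean lay at 0.156, the lowest share of the 35 falling genes.

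The rising genes with the largest differences ranged from very low levels to over 100 mean TPM. FvH4_6g35011 had 2.41, 3.15 and 2.29 CPM in RdV, 8.74, 6.44 and 9.55 in FT3OE, and 0.164, 0 and 0.313 in H4. The H4 values are 5, 0 and 9 counts. The depth-scaled ratio of summed counts was 15.5 for RdV over H4 (exact 95% binomial interval 9.03 to 28.8, counting error only). For FT3OE over H4 it was 48.5 (28.8 to 89.0). On the log2(CPM + 0.5) scale, which understates the change of such a gene, RdV minus H4 was 2.26 and FT3OE minus H4 3.74. Some counts of this gene were fractional, which marks reads that the authors' estimation divided between genes, so its level is uncertain.

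FvH4_2g08910 had 32.8, 39.2 and 40.8 CPM in RdV, 73.8, 56.9 and 53.6 in FT3OE, and 15.5, 2.90 and 5.36 in H4. H4 replicate 1 was several times above the other H4 libraries, yet under every RdV library. RdV minus H4 was 2.47 and FT3OE minus H4 3.17, and without H4 replicate 1 they were 3.09 and 3.78. FvH4_1g03040 showed the same spread within H4, with 11.7, 10.9 and 13.6 CPM in RdV, 32.6, 36.5 and 34.6 in FT3OE, and 6.96, 1.90 and 3.53 in H4. RdV was at 0.517 of the way from H4 to FT3OE on the log2 scale in FvH4_1g03040 and at 0.781 in FvH4_2g08910.

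Next in size, FvH4_1g14460 had 3.08, 3.66 and 2.57 CPM in RdV, 5.44, 4.38 and 4.32 in FT3OE, and 0.328, 0.736 and 0.204 in H4. RdV minus FT3OE was −0.54, and as a share of the log2 distance from H4 to FT3OE its RdV mean lay at 0.789, the highest share of the 66 rising genes. FvH4_1g01300 had 1.02, 0.703 and 1.53 CPM in RdV, 3.32, 2.79 and 2.12 in FT3OE, and 0.361, 0.260 and 0.238 in H4, the last from 11, 6 and 7 counts. FvH4_6g38700 had 4.23, 4.70 and 4.59 CPM in RdV, 9.55, 12.8 and 11.2 in FT3OE, and 3.84, 1.34 and 2.58 in H4. H4 replicate 1 came close to the lowest RdV library in FvH4_6g38700, again standing above the other H4 libraries.

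**Figure D2:**
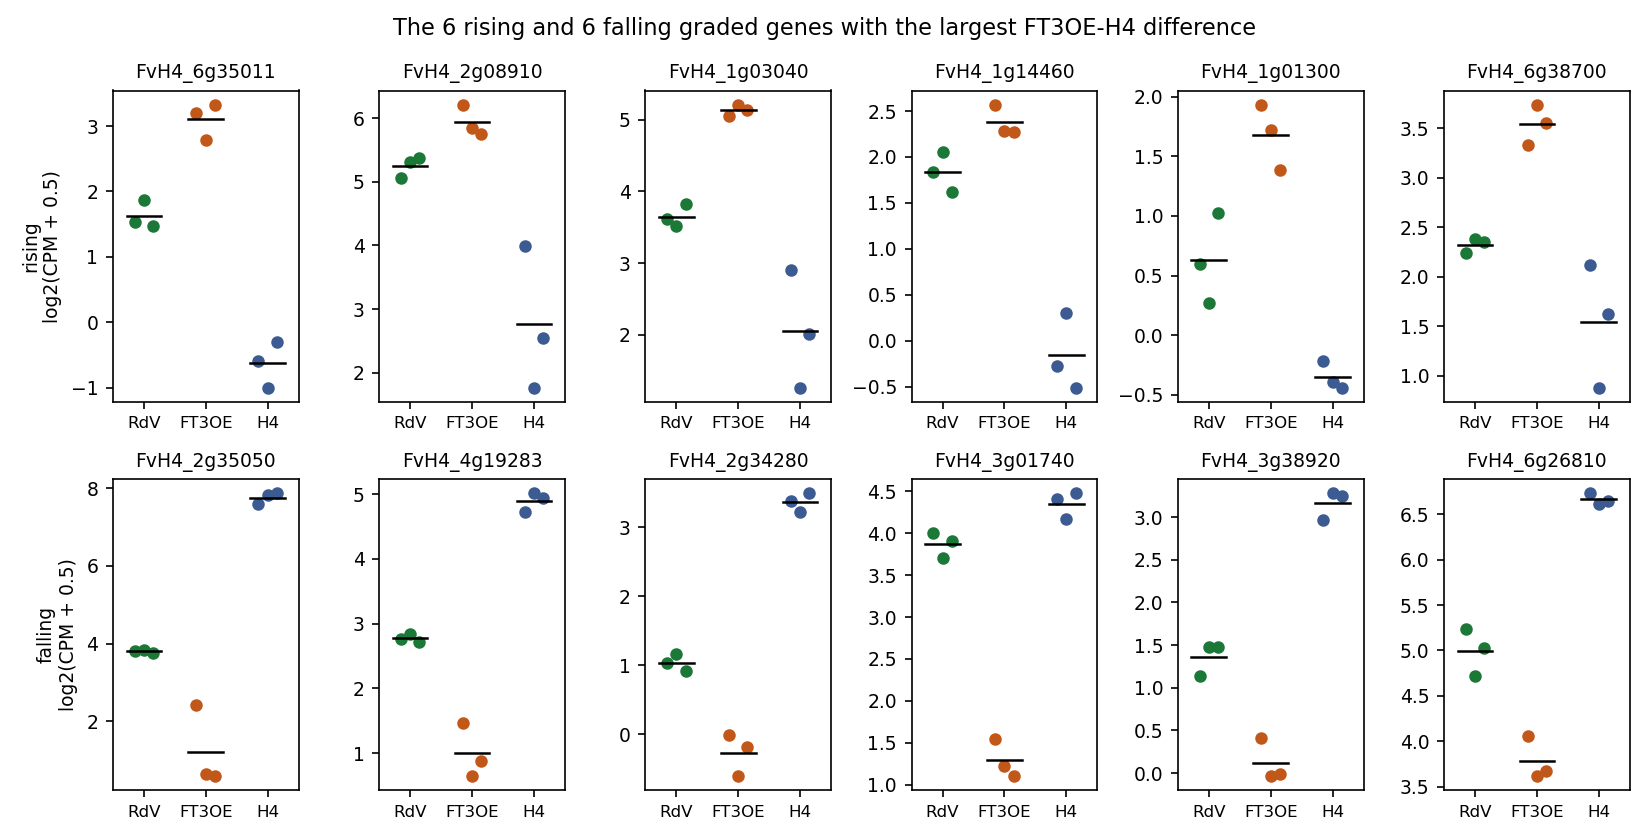
Values of log2(CPM + 0.5) in each library (points) and genotype means (bars) for the 6 rising genes (top) and the 6 falling genes (bottom) with the largest FT3OE-H4 difference; the vertical axes differ between panels. RdV lies between the other genotypes in each panel, far from H4 in FvH4_2g35050 and close to H4 in FvH4_3g01740.

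Levels can be compared between genes in TPM, which divide by effective gene length. The rising genes had a median of 7.37 TPM and the falling genes of 17.4 TPM, against 21.5 TPM over all eligible genes. At least 100 TPM was reached by 4 rising and 4 falling genes. The members together took 1806.7 to 1985 TPM per library in RdV, 2918 to 3109 in FT3OE and 942 to 1217 in H4 for the rising genes, and 1289 to 1393 in RdV, 703 to 897 in FT3OE and 2409 to 2647 in H4 for the falling genes. These sums order the genotypes by the choice of members and are given for scale.

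FvH4_5g07540 was the most abundant member. It averaged 581 ± 29.4 TPM in RdV, 419 ± 65.5 in FT3OE and 822 ± 48.4 in H4 (SD, n = 3 each), from 811, 846 and 743 CPM in RdV, 685, 513 and 547 in FT3OE, and 1094, 1207 and 1216 in H4. Its step from H4 to RdV was −0.55 and RdV minus FT3OE was 0.47, so the most abundant gene was also among the less steep ones. FvH4_2g32400, also falling, averaged 133 ± 7.54 TPM in RdV, 67.6 ± 8.83 in FT3OE and 232 ± 9.75 in H4. FvH4_7g03120 had 117 ± 22.3 TPM in RdV, 44.99 ± 6.41 in FT3OE and 187 ± 27.9 in H4, with wide spreads in RdV and H4.

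Among rising genes FvH4_6g08330 was the most abundant, with 298 ± 18.4 TPM in RdV, 567 ± 26.0 in FT3OE and 202 ± 17.3 in H4 (SD, n = 3 each). In CPM it had 215, 218 and 190.1 in RdV, 420.3, 395 and 385 in FT3OE, and 159, 136 and 142 in H4. All 3 genotypes were tight around their means, and RdV was nearer to H4. FvH4_2g07770 averaged 333 ± 21.4 TPM in RdV, 426 ± 41.3 in FT3OE and 195 ± 18.9 in H4. This gene has a short effective length, 0.118 times that of the median eligible gene, and its counts were correspondingly modest at 47.2, 49.1 and 39.7 CPM in RdV, 66.9, 62.4 and 51.9 in FT3OE, and 30.7, 29.6 and 23.6 in H4. FvH4_5g00320 averaged 233 ± 24.8 TPM in RdV, 389 ± 26.2 in FT3OE and 99.0 ± 31.5 in H4, where replicate 1 was again the highest H4 library, at 123 CPM against 65.9 and 84.5.

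The position of RdV was expressed as a share of the log2 distance, 0 at H4 and 1 at FT3OE. Its median was 0.539 in the rising genes (25th to 75th percentile 0.478 to 0.613) and 0.526 in the falling genes (0.402 to 0.623). The rule bounds this share: a gene at the smallest allowed distance must lie at 0.5, and a steep gene may lie almost anywhere between. RdV was past the midpoint in 45 of 66 rising and 19 of 35 falling genes. Read from single RdV libraries over the same genes, the median share was 0.588, 0.480 and 0.565 in replicates 1, 2 and 3 for the rising genes, and 0.496, 0.483 and 0.568 for the falling genes. In each direction the lowest of these single-library medians was under 0.5 and the highest above it.

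**Figure D3:**
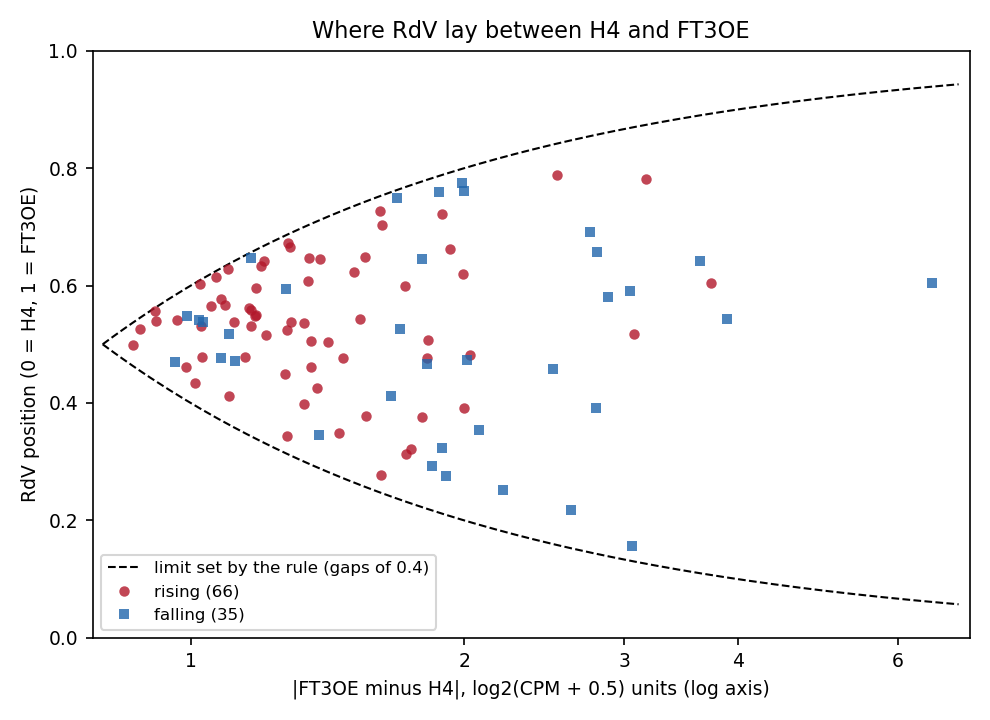
Position of RdV between H4 (0) and FT3OE (1) on the log2 scale against the size of the FT3OE-H4 difference (log axis), 1 point per graded gene. Dashed curves mark the limits that the rule sets, and the genes lie between 0.156 and 0.789.

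Genes at the midpoint and at both edges show this range. The rising FvH4_6g49720, at 0.499, had 7.54, 8.47 and 8.25 CPM in RdV, 10.9, 10.1 and 12.4 in FT3OE, and 5.91, 5.28 and 6.45 in H4. FvH4_6g45590, at 0.505, had 8.23, 7.25 and 6.05 CPM in RdV, 12.5, 11.01 and 12.3 in FT3OE, and 5.12, 3.81 and 3.63 in H4. Both are evenly stepped, and FvH4_6g49720 had the smallest FT3OE-H4 difference of all rising genes, 0.86. Of the falling genes, FvH4_7g28740 was at 0.518, with 18.9, 16.3 and 16.0 CPM in RdV, 11.1, 13.1 and 10.8 in FT3OE, and 24.3, 26.5 and 25.9 in H4. FvH4_7g26010, at 0.476, had 1.11, 1.96 and 1.27 CPM in RdV, 0.906, 0.772 and 0.712 in FT3OE, and 2.496, 2.12 and 2.10 in H4. In FvH4_7g26010 RdV replicate 2 came near the lowest H4 library.

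At the H4 edge of the rising genes stood FvH4_6g05700, at 0.277, with 55.0, 58.2 and 73.4 CPM in RdV, 159.8, 134 and 127 in FT3OE, and 41.5, 49.9 and 44.1 in H4. Some of its counts were fractional. At the FT3OE edge of the falling genes stood FvH4_1g02690, at 0.775, with 8.85, 9.18 and 8.73 CPM in RdV, 6.38, 6.08 and 6.77 in FT3OE, and 27.6, 24.6 and 28.8 in H4. RdV was therefore much closer to FT3OE than to H4 in FvH4_1g02690, and the opposite held in FvH4_6g05700.

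The thresholds separated genes with nearly equal values. Just inside, the rising FvH4_2g17030 had RdV minus FT3OE at −0.404, and the falling FvH4_2g38740 had it at 0.413. In FvH4_2g38740 the lowest RdV library, at 2.46 CPM, was barely above the highest FT3OE library, at 2.45. Just outside, FvH4_7g33050 had RdV minus FT3OE at −0.397, and FvH4_4g03650 had RdV minus H4 at −0.384, both with every other requirement met. The smaller of the 2 steps was under 0.5 in 27 of 66 rising and 11 of 35 falling genes.

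A gene and a stretch of neighbours were left out of the choice beforehand. FvH4_7g12700 had 226, 206 and 217 CPM in RdV, 281, 293 and 282 in FT3OE, and 163, 148 and 159.7 in H4, without overlap between genotypes. Its RdV minus FT3OE of −0.399 was just short of the required step. Among the 22 genes of at least 1 CPM from FvH4_4g29310 to FvH4_4g29630, only FvH4_4g29482 met the remaining requirements, with 28.3, 24.3 and 26.5 CPM in RdV, 35.2, 34.2 and 35.7 in FT3OE, and 13.5, 12.7 and 11.9 in H4.

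A library that took no part in the choice mostly fell where the others placed its genotype. For this, each library was left out in turn, the same rule was applied to the other 8, and the left-out value was then read. Of the 71 rising genes chosen without RdV replicate 3, it lay between every FT3OE and every H4 value in 69, and the corresponding numbers were 69 of 86 for RdV replicate 1 and 64 of 72 for RdV replicate 2. FT3OE libraries lay above every RdV value in 90.4% to 91.8% of the rising genes chosen without them, and H4 libraries under every RdV value in 89.6% to 98.6%. In falling genes the shares were 88.9% to 94.4% for RdV, 86.8% to 94.4% for FT3OE and 87.2% to 97.2% for H4. The left-out value was in place least often for RdV replicate 1 in rising genes, at 80.2%. No share for genes outside the choice was computed beside these, so they are a description.

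Single libraries deviated from their genotype together across many members. H4 replicate 1 was the highest H4 library in 42 of 66 rising genes (63.6%), against 37.7% of all eligible genes, and H4 replicate 2 was the lowest in 41 (62.1%, against 43.5%). The median deviation of H4 replicate 1 from the H4 mean was 0.15 on the log2 scale in rising genes, towards RdV and FT3OE, and 0.02 over all eligible genes. In falling genes H4 replicate 1 deviated by −0.02. There FT3OE replicate 1 was the highest FT3OE library in 26 of 35 (74.3%, against 31.3% of all eligible genes) and FT3OE replicate 2 the lowest in 22 (62.9%, against 31.0%). RdV replicate 3 was the lowest RdV library in 20 of the 35 falling genes (57.1%, against 24.1%), with a median deviation of −0.10. Without H4 replicate 1 the rule chose 77 rising genes, 65 of which were among the 66, and without FT3OE replicate 1 it chose 38 falling genes, 33 of which were among the 35.

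**Figure D4:**
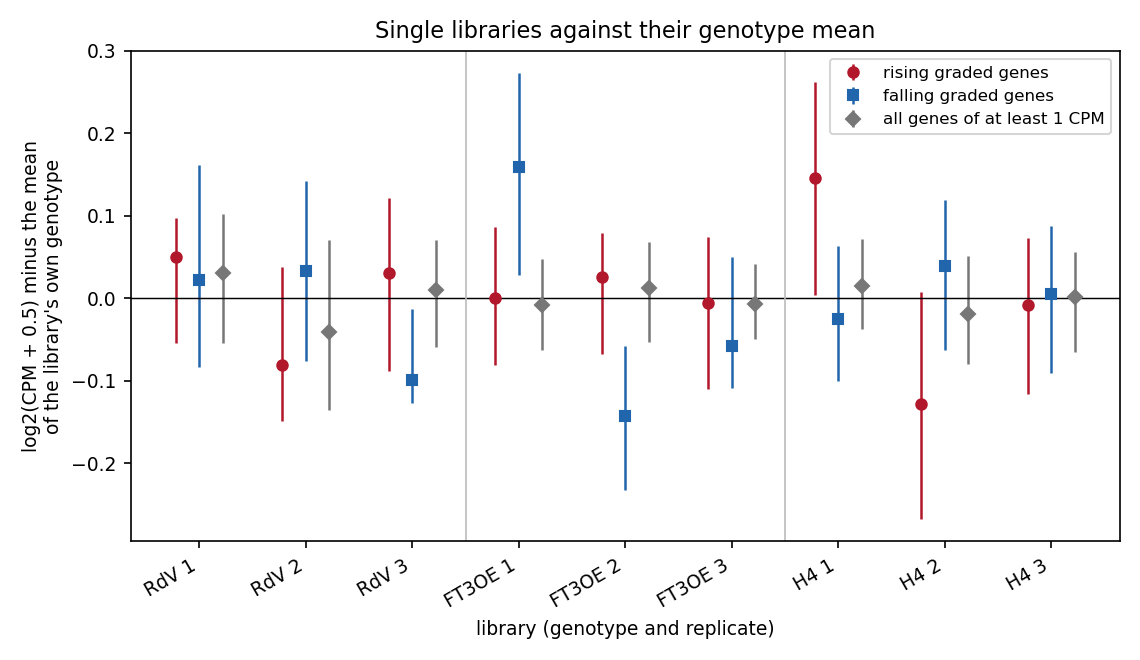
Deviation of each library from the mean of its own genotype in log2(CPM + 0.5), as the median (symbol) and the 25th to 75th percentile (line) over the 66 rising genes, the 35 falling genes and all 16945 eligible genes. H4 replicate 1 is shifted upwards in the rising genes (median 0.15) and FT3OE replicate 1 in the falling genes (median 0.16).

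The spread within genotypes was wider in members than over all eligible genes, by the median SD of each genotype. The median SD of log2(CPM + 0.5) between the 3 libraries was 0.15 in RdV, 0.14 in FT3OE and 0.23 in H4 for rising genes, against 0.13, 0.08 and 0.09 over all eligible genes. For falling genes it was 0.16 in RdV, 0.22 in FT3OE and 0.14 in H4. In both directions the genotype with the lowest level had the widest median spread. Counting error is larger at low counts, and its part in these spreads was not tested.

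The members were spread over all 7 linkage groups, read from the digit before the g in the identifier. Linkage group 6 held 23 of the 66 rising genes (34.8%), against 18.9% of all eligible genes, and 4 of the 35 falling ones (11.4%). Linkage group 2 held 14 rising genes (21.2%, against 15.002%) and linkage groups 5 and 7 held 4 each. Per 1000 eligible genes, rising members numbered 7.17 on linkage group 6 and 1.68 on linkage group 5, and falling members 1.25 and 2.11. The falling genes were more even, with 3 to 6 on each linkage group. These counts are small and are given without a test.

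**Figure D5:**
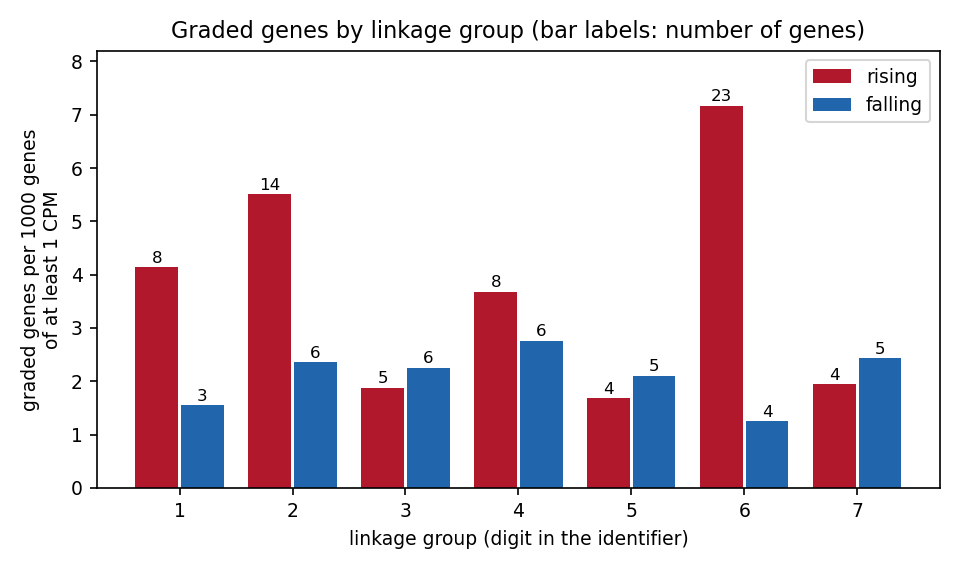
Graded genes per 1000 eligible genes of each linkage group, rising and falling, with the number of genes above each bar. The highest bar is that of the 23 rising genes on linkage group 6, at 7.17 per 1000.

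Few members were neighbours. No stretch of 10 identifiers held more than 2 members, and 5 stretches held 2. The pair FvH4_5g12710 and FvH4_5g12770, 6 identifiers apart, was falling in both genes. FvH4_5g12710 had 109, 86.0 and 92.2 CPM in RdV, 23.6, 20.9 and 23.4 in FT3OE, and 132, 147 and 147 in H4. FvH4_5g12770 had 6.59, 11.2 and 7.09 CPM in RdV, 3.13, 1.66 and 1.85 in FT3OE, and 17.1, 21.3 and 15.4 in H4. FT3OE was low in both, and RdV was nearer to H4, at 0.218 and 0.392 of the distance.

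The adjacent FvH4_2g17930 and FvH4_2g17950 were graded in opposite directions. FvH4_2g17930 was higher in FT3OE than in H4, with 23.7, 25.9 and 25.9 CPM in RdV, 32.4, 32.6 and 36.8 in FT3OE, and 20.3, 16.8 and 16.3 in H4. FvH4_2g17950 was lower in FT3OE than in H4, with 2.82, 2.07 and 1.90 CPM in RdV, 1.85, 1.41 and 1.40 in FT3OE, and 5.32, 6.66 and 6.31 in H4. The libraries were stranded, but the sources used here do not say whether counting used strand, and whether these neighbours overlap was not tested. FvH4_2g17950 has an effective length of only 0.0417 times the median, the smallest of all members. The other pairs, FvH4_2g07770 with FvH4_2g07820, FvH4_4g35920 with FvH4_4g35980 and FvH4_6g22110 with FvH4_6g22181, were rising in both genes.

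In shared reads the members were close to the other genes, while their median effective length was lower, more so in falling genes. Effective length, taken from the ratio of expected count to TPM and set to 1 at the median eligible gene, had a median of 0.902 in rising and 0.766 in falling genes. Fractional counts occurred in 3 of 66 rising genes (4.55%), FvH4_6g05700, FvH4_6g22110 and FvH4_6g35011, and in 2 of 35 falling genes (5.71%), FvH4_4g24061 and FvH4_6g04860, against 5.35% of eligible genes. At least 1 library held fewer than 10 counts in 5 rising and 3 falling members. One of these was the falling FvH4_4g32530, with 11, 28 and 7 counts in RdV, 1, 1 and 5 in FT3OE, and 92, 59 and 129 in H4. Its depth-scaled ratio of H4 over RdV was 6.18 (exact 95% binomial interval 4.51 to 8.64), and that of RdV over FT3OE was 8.997 (4.03 to 23.6). These intervals hold counting error only, not the spread between libraries.

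The same rule was applied with each other genotype in the middle. With FT3OE between RdV and H4 it found 472 genes (2.79% of eligible genes), of which 350 were highest and 122 lowest in RdV. With H4 between RdV and FT3OE it found 72 genes (0.425%), 22 highest and 50 lowest in RdV. The 101 genes with RdV in the middle therefore lay between these in number, and no test was made of the difference.

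An edgeR fit of all 18587 genes that passed its low-count filter gave the share of calls among the members beside that of all genes (TMM scaling; a call is a quasi-likelihood p under 0.05 after Benjamini-Hochberg adjustment). All 101 members passed this filter. Calls in either direction took 22.2% of all genes for RdV against FT3OE, 48.1% for RdV against H4 and 31.7% for FT3OE against H4. RdV differed from FT3OE in 52 of the 66 rising members, all lower, where 11.1% of all genes were called lower, and in 32 of the 35 falling members, all higher, where 11.1% were called higher. RdV was called higher than H4 in 61 rising members (24.4% of all genes) and lower in all 35 falling members (23.6%). FT3OE was called higher than H4 in all 66 rising members (16.7%) and lower in all 35 falling members (14.9%). The rule used these contrasts, and both comparisons with H4 share the H4 libraries, so nothing further is read from these counts. Under scaling by library totals alone 72.0% of the FT3OE-H4 calls over all genes were higher in FT3OE, against 52.9% with TMM scaling, and of the RdV-H4 calls 62.5% were higher in RdV, against 50.9%. With limma on log2(TPM + 1) the shares were 76.5% for FT3OE and 68.1% for RdV.

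The members that missed the call against H4 in RdV were FvH4_1g14320, FvH4_2g32690, FvH4_6g19720, FvH4_6g22110 and FvH4_6g38700, with RdV minus H4 between 0.44 and 0.78. Those that missed it between RdV and FT3OE included FvH4_2g08910 and FvH4_1g14460 of the steep rising genes. The falling genes that missed it were FvH4_2g17950, FvH4_2g38740 and FvH4_6g28350, the first with RdV minus FT3OE at 0.42 and the second at 0.41. For these members a difference in the mean and an absence of overlap did not come with an adjusted p under 0.05.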

How the data were processed

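Stranded mRNA libraries were read as 150 bp pairs, per the labels' protocols. The authors deposited expected counts per gene, not normalized, and TPM per gene, which are scaled by effective gene length to a fixed sum per library. Per the submitters' processing notes, the tools were STAR, RSEM and edgeR, with no roles or versions. The genome build is not given in the sources used here.

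The members and lists were chosen with earlier results of these data known. CPM were computed from the deposited expected counts and column totals, and members were found with Python 3.11.15 and pandas 2.3.3. Named genes follow a rule per direction: the 6 largest FT3OE-H4 differences, the 3 highest mean TPM, the 2 positions nearest 0.5, those nearest H4 and FT3OE, and those just inside and outside the thresholds. Neighbouring pairs, uncalled members and FvH4_7g03120, FvH4_4g32530 and FvH4_3g09870 were added after their values were seen.

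For calls, counts were rounded, filtered with filterByExpr, scaled by TMM and tested by quasi-likelihood (glmQLFit, glmQLFTest) in 1 fit over the 9 libraries. This used edgeR 4.0.16 under R 4.3.3 and Benjamini-Hochberg adjustment. The fit was also run on simulated counts with changes set in FT3OE only, read for FT3OE against H4. That run did not cover the comparisons with RdV. The p-values set the difference between genotypes against the spread between libraries, which may be technical. Intervals of count ratios are exact binomial on counts summed over libraries (scipy 1.17.1) and leave out the spread between libraries. Alternatives were other scalings, TPM in the rule, other pseudocounts, minimum levels and steps, DESeq2 1.42.0, limma 3.58.1 on log2 TPM, no filter, fits of 6 libraries, the replicate number as a block, and leaving out each library.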

Additional observations from a re-analysis of the deposited data

How the results depend on the processing

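The number of graded genes depended on the size of the steps required. With steps of at least 0.3 there were 104 rising genes, and with steps of at least 0.6 there were 18 rising and 16 falling genes, against 66 and 35 with 0.4. With TMM-scaled CPM the rule found 55 rising genes, 54 of them among the 66, and 42 falling genes, 34 of them among the 35; with TPM it found 69 and 33. Over all settings that changed neither the steps nor the libraries, 45 to 80 rising and 26 to 42 falling genes were found. Leaving out single libraries gave 68 to 86 rising and 32 to 39 falling genes, with median RdV positions of 0.517 to 0.554 and 0.487 to 0.546. Under the other settings these medians stayed between 0.512 and 0.560 for rising and between 0.492 and 0.535 for falling genes.

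The replicate numbers showed no uniform pairing of the libraries. Deviations of same-numbered libraries from their genotype means correlated across genes at −0.291 to 0.329 over 9 pairs, 4 of them below 0. Between RdV and H4 these correlations were 0.062, 0.329 and 0.291 in replicates 1, 2 and 3. Differently numbered libraries correlated at −0.320 to 0.239. With the replicate number as a block, 101 members were called for FT3OE against H4, 94 for RdV against H4 and 79 for RdV against FT3OE, compared with 101, 96 and 84 without it. Leaving out single libraries gave 101, 83 to 93 and 68 to 81 calls. No FT3OE minus H4 or RdV minus H4 difference of the named members changed sign under the other scalings or with TPM. Other pseudocounts and left-out libraries could not change a sign, because the rule allows no overlap between genotypes. Over all these settings, 28 of 550 values moved by more than the larger SD of the genotypes compared. With 3 libraries per genotype, leaving out a library cannot move a mean that far. The 28 values therefore all came from other scalings, TPM or other pseudocounts. The median FT3OE-H4 difference of all eligible genes was 0.10 with library totals, 0.01 with TMM and 0.14 with TPM. Depth limits the members with fewer than 10 counts in a library.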
